A study of Mus musculus with 6 samples.

Results

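Keratins are the intermediate filament proteins of epithelial cells. The genes described here are every gene whose symbol in the array annotation is Krt followed by a number, together with the epidermal genes Dsp, Pkp1, Pkp3, Perp, Sfn, Trp63 and Grhl3. They came to 53 members, 47 of them keratins, of 16593 named genes on the array. No probe carried the name Dsp. 47 of 53 protein-coding keratin genes in RefSeq had a probe. A member with several probes was represented by the probe of highest mean over the 6 arrays, which mattered for 6 members.

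RNA came from frontal cortex of male C57BL/6J embryos at embryonic day 15. 3 embryos were transgenic for the Cyfip1-spanning bacterial artificial chromosome RP24-333C15, which had been injected into C57BL/6J pronuclei, and 3 were wild-type littermates. They are called Tg1 to Tg3 and WT1 to WT3. The labels do not say how many founder lines were used. Every embryo had an Illumina MouseRef-8 bead array of its own, read in 1 colour, and with so few arrays the precision of all values is limited. All levels below are the authors' quantile-normalised log2 intensities, and every difference is transgenic minus wild-type on that scale.

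A keratin filament is built from a type I and a type II protein in equal amounts, so epithelial cells express the genes in pairs. Basal cells of the epidermis make Krt5 and Krt14, cells that leave the basal layer switch to Krt1 and Krt10, and simple, single-layered epithelia use Krt8 and Krt18. Filaments are anchored at desmosomes, where plakophilins such as Pkp1 and Pkp3 act, and Trp63 is the transcription factor that sets the epidermal programme. Cerebral cortex is not an epithelium of this kind, and neurons use other intermediate filaments.

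The stretches of DNA just before the annotated transcription starts of 5 members are shown because these genes carry the patterns described here. Krt14 and Krt5 are the basal pair, Krt8 and Krt18 the simple epithelial pair, and Krt10 a gene at nearly the same level in all embryos. Each stretch holds the 120 bases before the start, 5′ to 3′ on the gene's strand, from RefSeq on build GRCm38.p6. The positions are chr11:100206031-100206150 (minus strand) for Krt14, chr15:101712906-101713025 (minus strand) for Krt5, chr15:102004343-102004462 (minus strand) for Krt8, chr15:102028096-102028215 (plus strand) for Krt18 and chr11:99389365-99389484 (minus strand) for Krt10. Capitals mark the letters TATAAA, the textbook form of the TATA box, which was searched on both strands with no other motif.
Krt14: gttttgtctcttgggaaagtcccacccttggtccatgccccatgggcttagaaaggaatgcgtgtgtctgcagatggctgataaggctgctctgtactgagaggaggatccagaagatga
Krt5: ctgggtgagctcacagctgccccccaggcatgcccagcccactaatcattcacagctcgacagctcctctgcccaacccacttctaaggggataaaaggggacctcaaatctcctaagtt
Krt8: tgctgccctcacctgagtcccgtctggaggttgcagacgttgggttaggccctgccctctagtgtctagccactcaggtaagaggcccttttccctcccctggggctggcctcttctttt
Krt18: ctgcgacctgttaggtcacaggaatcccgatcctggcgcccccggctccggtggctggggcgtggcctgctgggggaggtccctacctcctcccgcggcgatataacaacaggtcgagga
Krt10: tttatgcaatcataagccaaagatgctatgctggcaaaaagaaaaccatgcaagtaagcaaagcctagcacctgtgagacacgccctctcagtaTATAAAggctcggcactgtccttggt

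TATAAA was found in the stretch of Krt10, beginning at position -26 from the start, and in none of the other 4. Of the 47 keratins 32 had a promoter in the table, and 12 of these, or 37.5%, held TATAAA in the same window, compared with 6.34% of 32851 promoters of all genes. A keratin was counted if any of its promoters held it, while the share for all genes is per promoter. Keratins of the hair follicle, such as Krt25, Krt27, Krt31 and Krt71, were among the 12. Of the 6 keratins that varied most between embryos and had a promoter here (Krt14, Krt5, Krt8, Krt18, Krt23 and Krt90), 0 held it. A match describes letters in a window, not a site in use. Absence refers to these exact letters only, and near forms, such as gataaaa in the Krt5 stretch, were not counted. Whether the annotated starts, that of Krt14 among them, are the ones used in skin was not tested.

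The embryos differed in other tissues' genes. Median scanner intensity ranged from 130.3 to 178 between arrays, and the mean correlation with the other arrays was lowest for Tg1, at 0.962 against 0.975 to 0.983. The numbers in the sample titles lie under 100 for Tg1 and WT3 and over 200 for the other 4, and the labels do not say what they mean. Skeletal muscle genes were high in that same pair of embryos. Their list mean (16 genes) was 9.95 in Tg1 and 8.51 in WT3, against 7.14 to 7.32 elsewhere. The mean of the cortex list (9 genes) was lowest in WT2, at 7.78, and next in Tg3, at 8.11, against 8.64 to 9.43 in the others. Tbr1, a transcription factor of early cortical neurons, stood at 7.09 in WT2, 9.09 in Tg3 and up to 11.16 elsewhere. Genes of the list did not all share this order, since Lhx2 was at 9.51 in WT2, second only to WT3, and Bcl11b was lowest in Tg3, at 11.43. Results are therefore also given without Tg1, and without it and WT3.

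No difference between transgenic and wild-type embryos passed the test. At a limma adjusted p under 0.05, 0 of 53 members were called and 0 of all 25697 probes (0%). Without adjustment, 749 probes had a p under 0.05 with a positive difference and 880 with a negative one. At this level 0 members were higher, where 2.91% of all probes were, and 1 was lower, Krt73, where 3.42% of all probes were. The transgenic and wild-type values did not overlap for 1 member in each direction, compared with 5.39% of all probes higher and 6.9% lower. These members were Krt25, with a difference of 0.12, and Krt87, with -0.12, and both were picked out after their values were seen. 32 of the 53 differences were positive, as were 46% of those of all probes. The members' median was 0.02 and that of all probes -0.01. The smallest p that an exact permutation of 3 against 3 embryos allows is 0.1, and no such test was used.

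The members varied between embryos of the same genotype. Tg1 had the highest of the 6 values for 27 of the 53 members (50.9%), compared with 21.4% of all probes. 13 of the 53 members had Tg1 highest and WT3 next, an order that 6.26% of all probes showed. 10 members spanned at least 1 log2 unit between the lowest and the highest embryo, as did 8.72% of all probes. In 9 of the 10, Tg1 was highest. This follows in part from the limit itself, since Krt5, Krt17, Krt19, Krt23 and Trp63 reached it only through their Tg1 value. How often Tg1 was highest among all probes with such a span was not counted. The last inside that limit were Krt90 with a span of 1.13 and Krt23 with 1.10, and the first outside it were Krt7 with 0.73 and Pkp1 with 0.59.

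**Figure D1:**
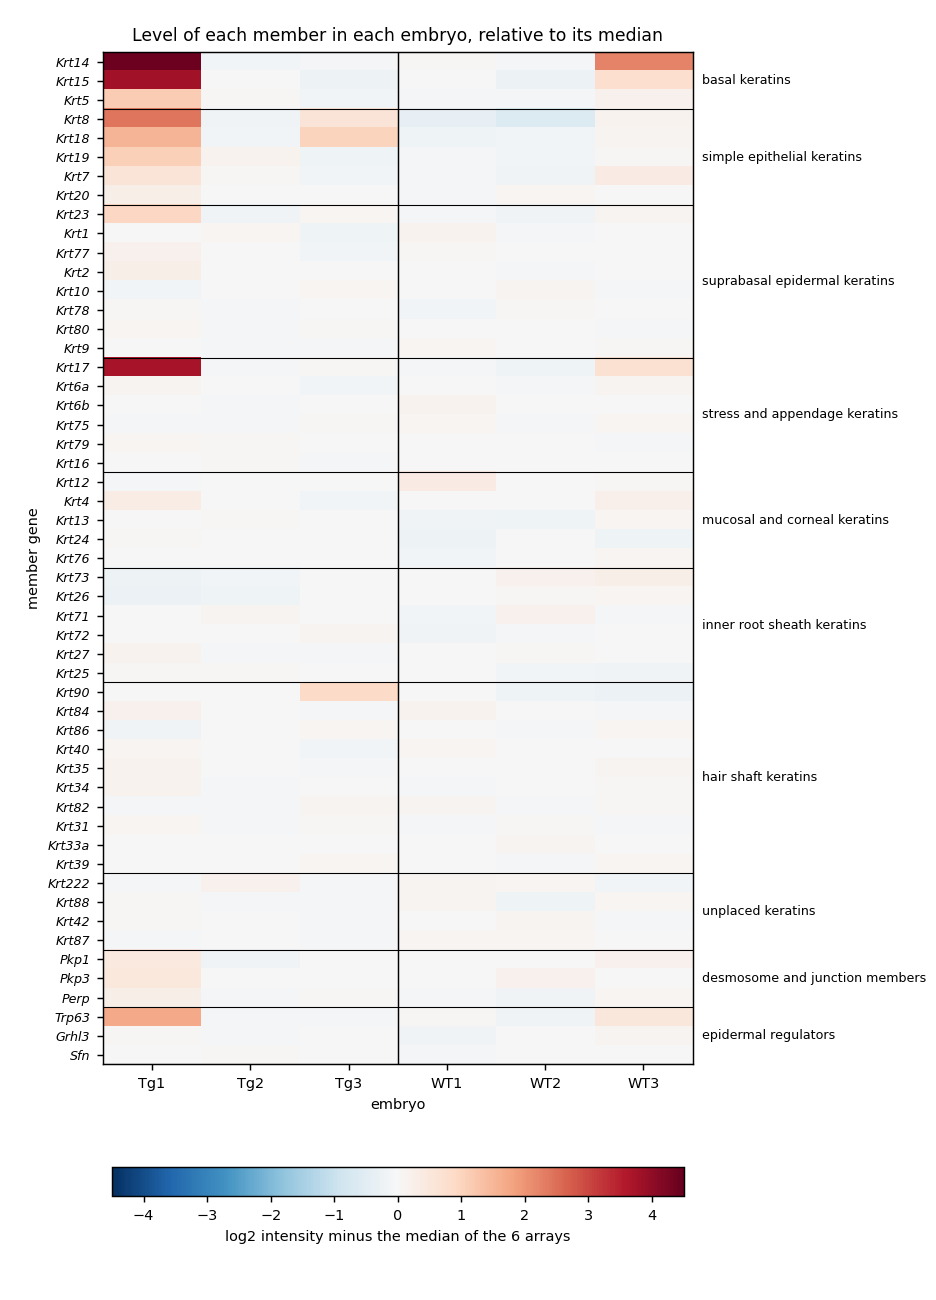
Each row is a member, grouped by role, and each column an embryo; colour gives log2 intensity minus the member's median over the 6 arrays. The dark cells lie in Tg1, with Krt14 at 4.40, Krt15 at 3.79 and Krt17 at 3.72, and paler ones in WT3, with Krt14 at 2.24.

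Krt14, the type I keratin of basal epidermis, stood at 11.31 in Tg1, 6.80 in Tg2 and 6.83 in Tg3. In WT1 to WT3 it stood at 6.97, 6.85 and 9.15, and values below keep this order of embryos. Tg1 and WT3 were thus high, the other 4 embryos lay within 0.2 of each other, and the groups overlapped. The means were 8.31 ± 2.60 in transgenic and 7.66 ± 1.29 in wild-type embryos (SD, n = 3 each), a difference of 0.65 (SE 1.32) that did not pass (limma adjusted p = 0.931). The difference turned to -0.84 without Tg1 and was -0.10 without it and WT3. In whole-tissue RNA, fewer cells of a type and less RNA per cell cannot be told apart.

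Its type II partner Krt5 stood at 8.03, 6.93 and 6.77 in transgenic and 6.80, 6.85 and 7.10 in wild-type embryos. The order of the top embryos was that of Krt14, over a much smaller range. The difference of 0.32 (SE 0.33) did not pass (limma adjusted p = 0.854), and it was -0.07 without Tg1. Krt15, a keratin of basal cells and of the hair follicle bulge, stood at 10.96, 7.14 and 6.93 in transgenic and 7.19, 6.90 and 7.94 in wild-type embryos. Again Tg1 was far above the rest and WT3 was next. The Krt15 difference was 1.0 (SE 1.06, limma adjusted p = 0.861), -0.30 without Tg1 and -0.0056 without both of these embryos.

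Krt17, a keratin of hair follicles, of developing epidermis and of wounded skin, stood at 10.94, 7.18 and 7.27 in transgenic and 7.16, 7.03 and 7.90 in wild-type embryos. Tg1 was highest and WT3 next, as for Krt14 and Krt15. Its difference of 1.10 (SE 1.0) did not pass (limma adjusted p = 0.836) and was -0.14 without Tg1 and 0.13 without it and WT3. The other 5 members of the list of stress and appendage keratins, among them Krt6a, Krt6b and Krt16, which rise in wounded epidermis, spanned no more than 0.24 each. That holds for the probes chosen here. Further probes spanned 0.37 and 0.30 for Krt75, 0.25 for Krt6b and 0.15 for Krt6a.

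Trp63 stood at 8.55, 6.75 and 6.76 in transgenic and 6.89, 6.68 and 7.36 in wild-type embryos. Tg1 and WT3 were again the highest. The difference was 0.38 (SE 0.50, limma adjusted p = 0.890), turning to -0.22 without Tg1 and to -0.03 without both embryos. The other regulators, Grhl3, which drives formation of the skin barrier, and Sfn, a 14-3-3 protein of stratified epithelia, varied little. Grhl3 stayed between 6.59 and 6.89 and Sfn between 6.82 and 6.91 in all embryos, with differences of 0.0027 (SE 0.10) and 0.03 (SE 0.06). A second Sfn probe reached 7.25 in Tg1 and lay between 6.63 and 6.81 elsewhere.

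Of the junction members, the plakophilin Pkp3 stood at 7.48 in Tg1 and between 6.98 and 7.19 in the other 5 embryos. Pkp1 stood at 7.42 there, with WT3 next at 7.16 and the rest between 6.83 and 6.99. Perp, a membrane protein of desmosomes, stood at 7.07, with WT3 next at 6.89 and the rest between 6.63 and 6.84. Tg1 was the highest embryo for all 3 genes, by small margins. Their differences were 0.10 (SE 0.15) for Pkp3, 0.03 (SE 0.16) for Pkp1 and 0.15 (SE 0.12) for Perp, and none passed. Without Tg1, Pkp3 was at -0.06 and Pkp1 at -0.15, while Perp was at 0.06.

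The simple epithelial pair had a different order. Krt8 stood at 10.02, 7.46 and 8.19 in transgenic and 7.23, 6.99 and 7.75 in wild-type embryos. Krt18 stood at 8.44, 6.77 and 7.89 in transgenic and 6.72, 6.78 and 7.04 in wild-type embryos. In both genes Tg3 came second, ahead of WT3, and Tg2 lay among the wild-type embryos. The means of Krt8 were 8.56 ± 1.32 and 7.32 ± 0.39 (SD, n = 3 each), a difference of 1.24 (SE 0.63, limma adjusted p = 0.763). Those of Krt18 were 7.70 ± 0.85 and 6.85 ± 0.17, a difference of 0.85 (SE 0.40, limma adjusted p = 0.759).

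Krt8 differed by 0.50 without Tg1 and by 0.72 without it and WT3, and Krt18 by 0.49 and 0.58. Within the title numbers under 100, which is 1 embryo against 1, the differences were 2.27 for Krt8 and 1.40 for Krt18, and within those over 200, 2 embryos against 2, they were 0.72 and 0.58. With the number range as a block, Krt8, Krt18 and Krt73 had an unadjusted p under 0.05 and 0 members an adjusted one, while 12.1% of all probes had such an unadjusted p. For Krt14 the same within-range differences were 2.16 and -0.10, for Krt15 3.02 and -0.0056, for Krt17 3.04 and 0.13, and for Trp63 1.19 and -0.03.

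**Figure D2:**
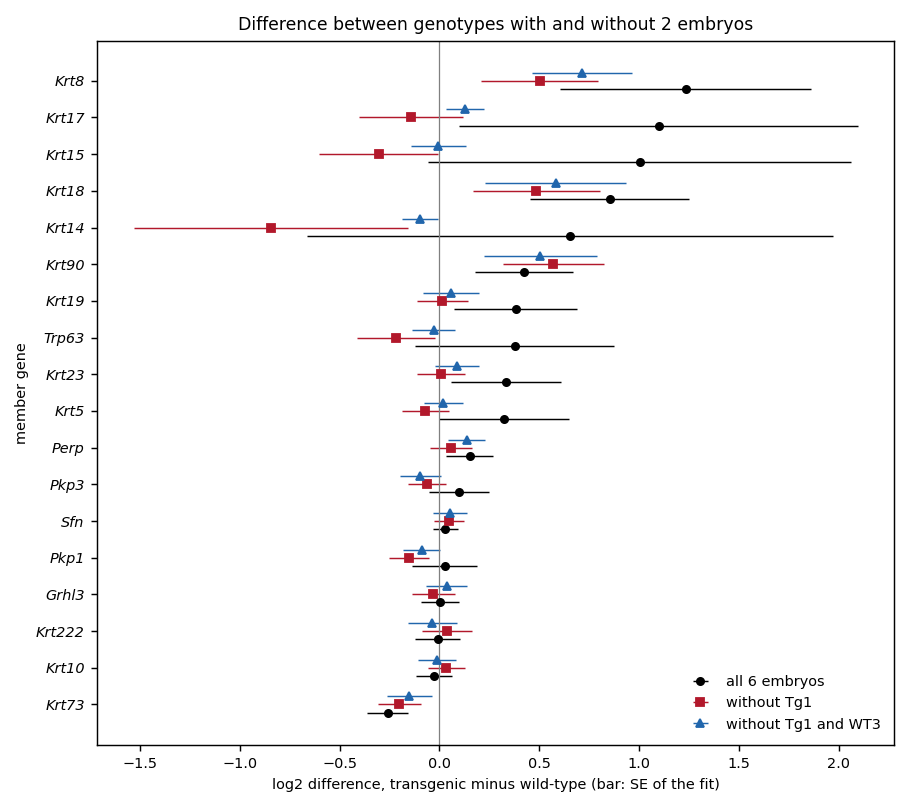
Log2 difference (transgenic minus wild-type) of 18 members with all 6 embryos (black), without Tg1 (red) and without it and WT3 (blue), with bars for the SE of the fit. Krt8, Krt18, Krt90, Krt19, Krt23, Perp and Sfn stay above 0 in all 3 sets. Without Tg1, Krt19 lies at 0.015 and Krt23 at 0.0078. Krt14 moves from 0.65 to -0.84 and -0.10.

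Choroid plexus is a simple epithelium, and its marker list (8 genes) was highest in Tg3, at a mean of 9.86, followed by 8.77 in Tg2, 8.71 in WT3 and 8.17 in Tg1. Its most variable marker Ttr, the thyroid hormone carrier, stood at 14.57 in Tg3, 13.57 in Tg2, 13.49 in WT3, 9.11 in Tg1, 7.38 in WT2 and 7.33 in WT1. Markers of the list differed in their order over the embryos. Otx2, the next most variable, stood at 12.36 in WT2, 11.38 in Tg3 and 8.49 in Tg1. The water channel gene Aqp1 stood at 10.74 in Tg1, 10.01 in Tg3 and between 7.18 and 8.22 elsewhere. Its leading embryos were those of Krt8 and Krt18. Clic6, a chloride channel gene, stood at 10.85 in Tg3 and 9.29 in Tg1, with all other embryos lower. In Kcne2 and Folr1, by contrast, Tg1 was the lowest embryo, at 7.13 and 6.90, and Tg3 the highest. The part of choroid plexus in the Krt8 and Krt18 values was not tested. Krt19, a further keratin of simple epithelia, stood at 7.86 in Tg1 and between 6.58 and 6.94 elsewhere, with a difference of 0.38 (SE 0.31, limma adjusted p = 0.818) that was 0.01 without that embryo. Krt7 reached 7.75 in Tg1 and 7.55 in WT3, against 7.02 to 7.24 in the others.

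**Figure D3:**
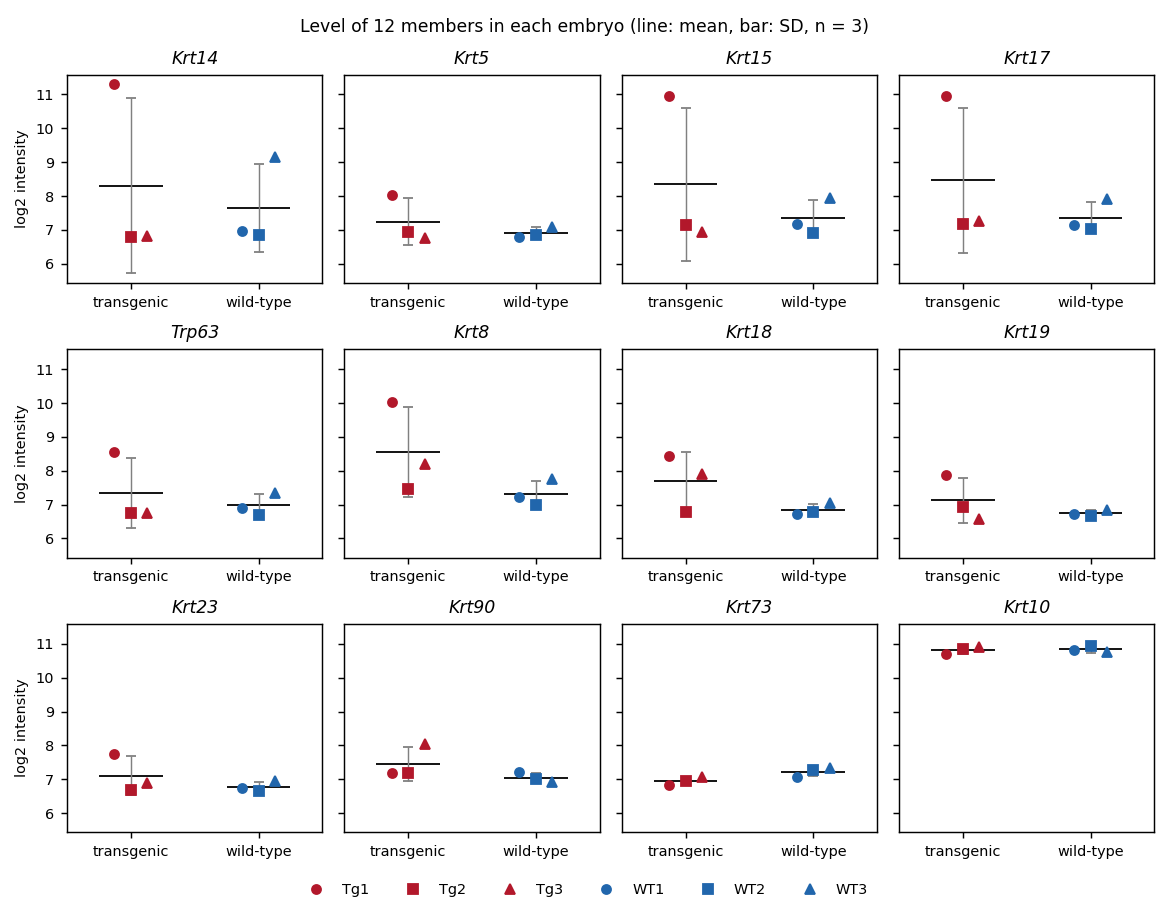
Log2 intensity of 12 members in each embryo, with transgenic embryos in red and wild-type in blue, marker shape giving the sample number, a line at the mean and a bar for the SD (n = 3). In Krt14, Krt15, Krt17 and Trp63 the high points are Tg1 and then WT3, in Krt8 and Krt18 they are Tg1 and Tg3, and Krt10 stays between 10.70 and 10.95.

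Krt10, which the naming rule did not cover and which was picked out after its values were seen, did not follow the basal keratins. It stood at 10.70, 10.84 and 10.91 in transgenic and 10.83, 10.95 and 10.75 in wild-type embryos. All 6 values lay within 0.25 of each other, and Tg1 was the lowest. The difference was -0.03 (SE 0.09, limma adjusted p = 0.964). Krt1, the type II partner of Krt10 in suprabasal epidermis, stood between 6.86 and 7.22 in all embryos, near the median of all probes, 7.18. Keratins are near relatives in sequence, and whether the Krt10 probe also binds another transcript was not tested.

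Krt90 and Krt23 showed 1 high embryo each. Krt90 stood at 8.04 in Tg3 and between 6.91 and 7.21 in the other embryos. Its difference was 0.42 (SE 0.24, limma adjusted p = 0.776), and it was 0.14 without Tg3. Krt23 stood at 7.76 in Tg1 and between 6.67 and 6.94 in the others, a difference of 0.33 (SE 0.28, limma adjusted p = 0.824) that was 0.0078 without that embryo. Krt73, a keratin of the inner root sheath of hair, was the member with an unadjusted p under 0.05. It stood at 6.85, 6.96 and 7.08 in transgenic and 7.07, 7.28 and 7.32 in wild-type embryos, so that Tg3 lay just above WT1, and its difference of -0.26 (SE 0.10) did not pass (limma adjusted p = 0.759). Krt222, a keratin-like gene, stood between 7.13 and 7.46 in all embryos, with a difference of -0.0087 (SE 0.11).

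The remaining 35 members, all keratins, varied little. This follows in part from the naming rule, which took out keratins spanning at least 1 log2 unit or with an unadjusted p under 0.05. Their values lay between 6.48 and 7.75, no member spanned more than 0.73 over the embryos, and differences between genotypes ranged from -0.19 to 0.14, 17 above 0 and 18 below. Keratins of the hair shaft and inner root sheath, of mucosa and cornea, and the suprabasal Krt1, Krt2 and Krt77 belong here. 10 of all 53 members had a mean above the median of all probes. Because the deposited values include array background, any difference of a dimmer member would be smaller on this scale than in RNA. Whether the dimmer members were detected above background was not tested.

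Several keratins that were high in Tg1 had a neighbouring keratin gene that was not. Keratin genes lie in a cluster on chromosome 11, which holds type I genes, and a cluster on chromosome 15, which holds type II genes and Krt18. Along chromosome 11 the keratin genes in RefSeq run, in part, Krt13, Krt15, Krt19, Krt9, Krt14, Krt16, Krt17 and Krt42. In Tg1, Krt15, Krt19, Krt14 and Krt17 lay 3.79, 1.08, 4.40 and 3.72 above their 6-array medians, while Krt9, Krt16 and Krt42, which lie between or beside them, lay within 0.1 of theirs. On chromosome 15, Krt8 and Krt18 follow each other among the keratin genes and lay 2.42 and 1.53 above their medians, and Krt78, next to Krt8, lay 0.06 above its own. Krt5 lay 1.14 above its median, and Krt6a and Krt71 on either side lay at 0.11 and -0.01.

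**Figure D4:**
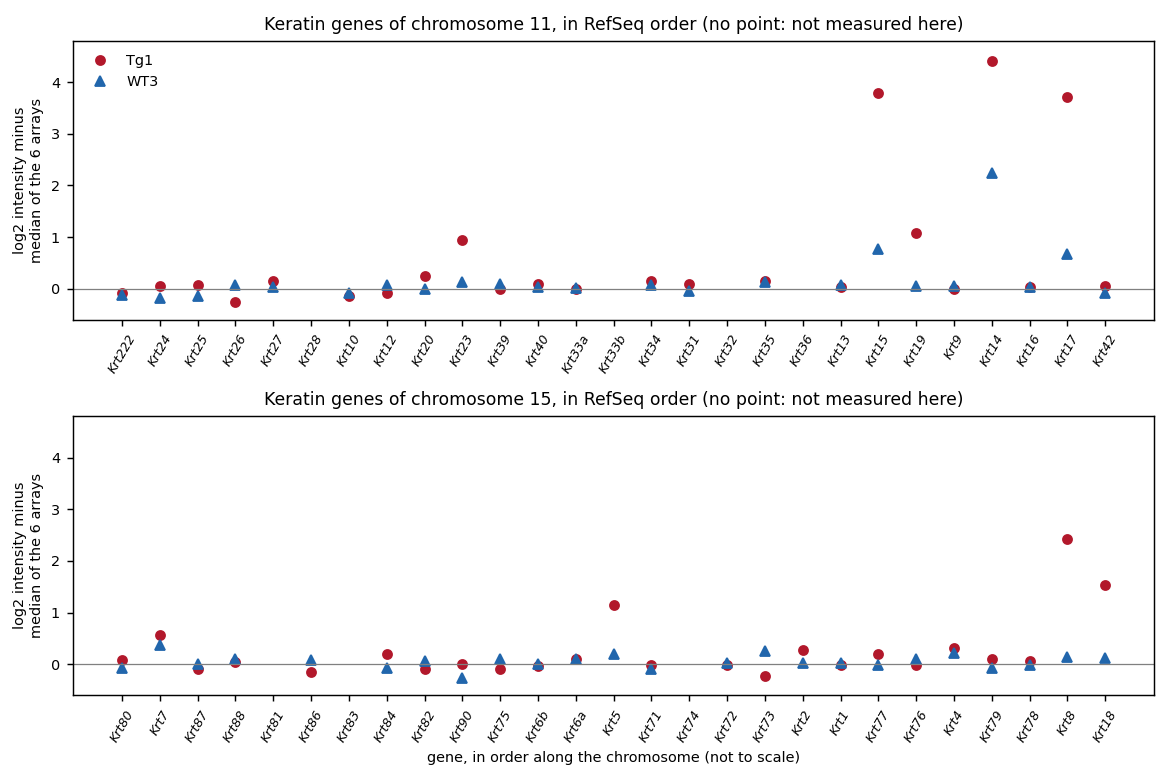
Log2 intensity of Tg1 (red circles) and WT3 (blue triangles) minus the 6-array median of each keratin gene, in RefSeq order along chromosome 11 (top) and chromosome 15 (bottom), not to scale. Krt15, Krt14 and Krt17 stand highest in Tg1, with Krt19, next to Krt15, at 1.08 and Krt9 and Krt16 near 0, and in WT3 Krt14 lies at 2.24, with Krt15 at 0.77 and Krt17 at 0.68.

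The excess of Tg1 over WT3 varied from gene to gene. On the linear scale, Krt14 lay 2414 intensity units above its 6-array median in Tg1 and 447 units above it in WT3, a ratio of 5.40. Trp63 gave 260 and 50.01 units, a ratio of 5.21. For Krt15 the values were 1848 and 101.4 units, a ratio of 18.2, and for Krt17 they were 1816 and 89.7 units, a ratio of 20.2. The muscle genes Myl1 and Actc1 gave ratios of 3.73 and 5.51. Each ratio compares 1 array with 1 array, so none has a replicate error.

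Other genes of epithelia and of tissues next to the brain were read from lists of markers, and 0 genes of any list passed in either direction. At an unadjusted p under 0.05, 5 fibroblast, 2 general epithelial and 2 choroid plexus genes were higher, beside 2.91% of all probes, and 1 cornified envelope and 1 melanocyte gene lower, beside 3.42%. Of 23 general epithelial genes, 19 differences lay above 0 with a median of 0.18, and Tg1 was highest for 17, beside 21.4% of all probes. Cldn6, a tight junction gene of embryonic epithelia, stood at 9.61 in Tg1 and 9.08 in Tg3 and between 6.75 and 7.17 elsewhere, again Tg1 and then Tg3. Of 15 further desmosome and hemidesmosome genes, 7 lay above 0 (median -0.06), and Tg1 was highest for only 4. Col17a1, a collagen that fixes basal cells to the basement membrane, stood at 9.17 in Tg1 and between 6.90 and 7.30 elsewhere, and Itgb4, its integrin partner, at 8.95 there and between 6.88 and 7.58 elsewhere. Of 24 genes of the cornified envelope, the shell of the outermost skin cells, 10 lay above 0 (median -0.02), and Tg1 was highest for only 4. The list mean stayed between 7.11 and 7.24 in all embryos. Krtdap, a gene of differentiating keratinocytes, stood at 8.63 in Tg1 and 7.59 in WT3, and between 6.63 and 7.08 in the others.

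For 12 of 16 skeletal muscle genes Tg1 was highest and WT3 next, as for Krt14, with a median difference of 0.52 and 15 of 16 above 0. The fibroblast list of dermis and meninges (16 genes, all above 0, median 1.28) had its highest mean, 10.44, in Tg1, whereas WT3 was low, at 7.85, and the other embryos ranged from 7.81 to 8.95. Of 8 melanocyte genes 5 lay above 0 (median 0.03), and Tg1 was highest for 2. Dct, an enzyme of pigment synthesis, stood at 8.34 in Tg1 and 8.16 in WT3 and between 6.70 and 6.98 in the others. The melanocyte genes Tyr, Slc45a2 and Mlana did not reach 7.3 in any embryo. Of 9 cortex genes 6 lay above 0 (median 0.51), and of the 8 choroid plexus genes 6 did (median 0.53). The part of skin, muscle or other tissue in the differences between genotypes was not tested.

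**Figure D5:**
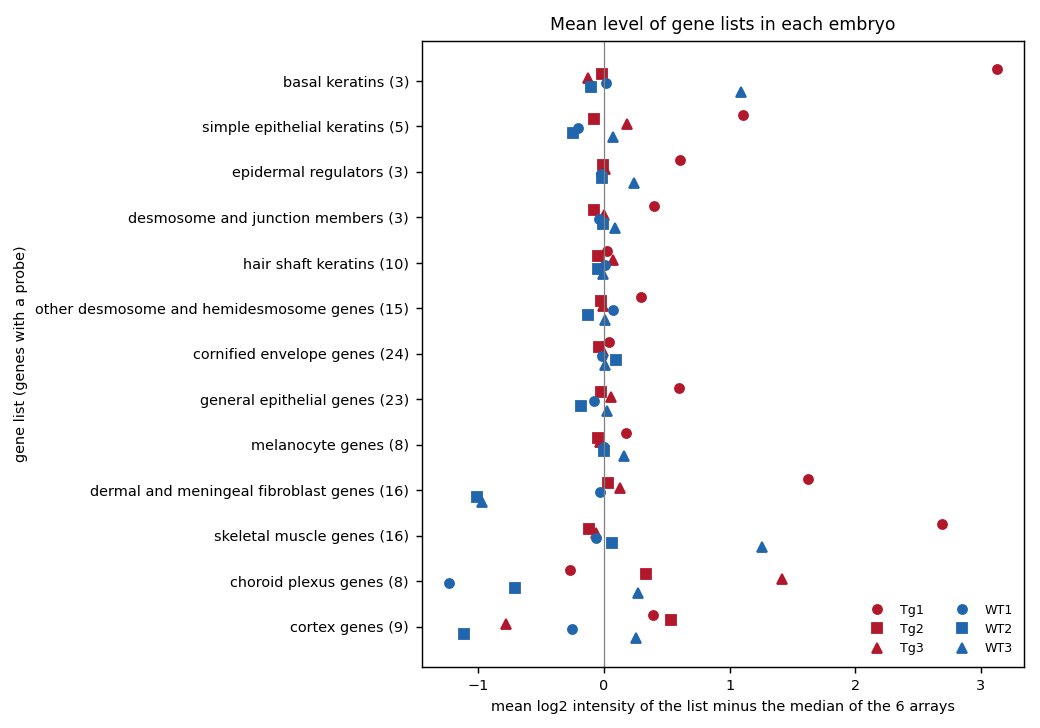
Mean log2 intensity of each gene list in each embryo minus the median of the 6 arrays, with the number of genes in brackets, transgenic embryos in red and wild-type in blue. Basal keratins and skeletal muscle genes set Tg1 and WT3 apart, fibroblast genes set Tg1 alone apart, and choroid plexus genes are highest in Tg3.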

How the data were processed

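Expression was measured in 6 arrays, 1 per embryo, and groups follow the genotype given in the labels, with numbers in accession order, so no number pairs samples. Per the labels' protocols, 200 ng of total RNA was amplified, biotinylated and hybridised. In the deposited scanner table, a linear intensity stands for each probe on each array, the beads of a probe having been combined. The submitters' processing notes name BeadStudio, with no version or settings stated. The authors' second deposited table is in log2 units. Setting it beside the scanner table showed quantile-normalized log2 intensities with no background correction (largest deviation 5e-09) and no centring, rising with intensity, with an array median of 7.18.

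These log2 values were tested for all 25697 probes with lmFit and eBayes (R 4.3.3, limma 3.58.1), two-sided, with no covariate and no intensity filter, and Benjamini-Hochberg adjustment ran over all probes, with a threshold of 0.05. The fit was tested on simulated data. Gene names came from the platform annotation. 23978 probes had 1 symbol, 0 had several and 1719 none, and all 53 members were found by gene ID in RefSeq on GRCm38.p6. 34 members had a promoter there. The members named are the non-keratins, Krt222, and keratins spanning at least 1 log2 unit or with an unadjusted p under 0.05. Of each marker list at most 2 genes, those with the largest span, were to be named. Krt10, Krt7, Krt25, Krt87 and the keratins named by their neighbours or list fall outside the rule. So do Aqp1, Clic6, Kcne2, Folr1, Lhx2, Bcl11b, Tyr, Slc45a2 and Mlana. All of these were chosen after their values were seen. Members, lists and alternatives were chosen with earlier results of these data known. Alternatives covered normexp correction with an offset of 50, median scaling, cyclic loess, a filter on dim probes, a variance trend, array weights, the title number range as a block and samples left out. All arrays share a slide number in the labels.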

Additional observations from a re-analysis of the deposited data

How the results depend on the processing

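0 members passed the adjusted threshold under any alternative tried, and 0 probes of all passed except when samples were left out, where the count ranged from 0 to 1, the 1 without WT1. The number of members with an unadjusted p under 0.05, 1 in the values reported, was 2 with median scaling (7.15% of all probes), 2 with a variance trend (6.28%), 3 with the title number range as a block (12.1%), 0 with array weights (6.42%), 0 among probes above the median (6.98%) and 0 to 2 with 1 sample left out. The median difference of the members ranged from -0.03 to 0.05 with 1 sample left out. It was 0.54 among the 10 members above the median, 6 of which spanned at least 1 log2 unit over the embryos. Of 243 single-gene values under the alternatives, 213 kept their direction and side of the threshold and 30 turned. With median scaling, Krt222 was at 0.012, Pkp1 at -0.0021, Sfn at -0.022, Grhl3 at -0.064 and Krt10 at 0.018, and with cyclic loess Krt222 was at 0.012. With array weights, Pkp3 was at -0.0062, Pkp1 at -0.053 and Grhl3 at -0.00077. Without Tg1 and WT3, Krt14 was at -0.10, Krt15 at -0.0056, Trp63 at -0.030, Pkp3 at -0.096 and Pkp1 at -0.089. With 1 sample left out, the differences ranged from -0.84 to 1.41 for Krt14, -0.30 to 1.71 for Krt15, -0.14 to 1.74 for Krt17, -0.070 to 0.56 for Krt5, -0.22 to 0.68 for Trp63, -0.15 to 0.14 for Pkp1, -0.062 to 0.19 for Pkp3, -0.079 to 0.070 for Grhl3, -0.11 to 0.043 for Krt222 and -0.074 to 0.034 for Krt10. The differences of the other 8 named members kept their sign with 1 sample left out, with ranges of 0.50 to 1.79 for Krt8, 0.49 to 1.32 for Krt18, 0.14 to 0.57 for Krt90, 0.015 to 0.66 for Krt19, 0.0078 to 0.55 for Krt23, 0.058 to 0.23 for Perp, 0.014 to 0.049 for Sfn and -0.34 to -0.20 for Krt73. The cause was not tested. No paired analysis was run, because embryos were not assigned to litters and the sample numbers used here pair no embryos.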

Other observations

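Lor and Tfap2c, of the cornified envelope and epithelial lists, followed neither genotype nor, over all embryos, the pattern of Krt14. Lor, which encodes the main protein of the cornified envelope, stood at 8.48, 9.73 and 9.999 in transgenic and 10.30, 10.12 and 9.30 in wild-type embryos. It was lowest in Tg1 and next lowest in WT3, the embryos where Krt14 was highest and next highest. Its difference of -0.50 (SE 0.45) did not pass (limma adjusted p = 0.830). Whether the Lor probe also binds another transcript was not tested. Tfap2c, a transcription factor of surface ectoderm that is also known from cortical progenitors, stood at 10.90, 10.69 and 8.40 in transgenic and 10.62, 7.25 and 10.79 in wild-type embryos. Tg1 was highest and WT3 next, as for Krt14, but Tg2 and WT1 lay close to them. The low embryos for Tfap2c were WT2 and Tg3, which were also the lowest for the mean of the cortex list.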
